A study of Mus musculus with 22 samples.

Results

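Transcripts of the proximal T cell receptor signalling machinery were followed across 3 kinds of CD4+ T cell. The 44 members, chosen by gene symbol from the 55011 rows of the count table, comprise 7 genes of the receptor and its co-receptors, 6 kinase genes (with the adaptor that anchors Csk), 14 adaptors and effectors, 13 brakes and 4 genes of the calcium branch. All 44 matched 1 gene of the GENCODE M21 annotation (GRCm38) and all passed the filter on low counts, which 15462 genes passed. The symbols were listed by gene function, with earlier results of these data known, and no threshold on a measured value was applied.

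When the receptor meets its ligand, Lck phosphorylates the CD3 and zeta chains, Zap70 docks on them and phosphorylates the scaffolds Lat and Slp-76, and these recruit Plcg1, whose products open the calcium and Ras branches. Phosphatases, ubiquitin ligases, diacylglycerol kinases and small adaptors hold this cascade down. Regulatory T cells (Treg), which depend on the transcription factor Foxp3, need receptor signals to suppress, and Foxp3 is known to bind and repress some genes of this cascade in mice.

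In the FOXP3 group, CD4+ T cells from lymph nodes of 10-day-old scurfy mice, which lack functional Foxp3, had received human FOXP3 with the surface reporter LNGFR (5 codes, F1, F2, F5, N2 and N3). The WT Treg group was CD4+CD25+ cells marked by CD45.1, an allele of the member Ptprc, and their donor is not described (3 codes, E2, G4 and L1). In the LNGFR group, such scurfy cells had received the reporter alone (3 codes, G1, G2 and G3). Every sample is labelled C57BL/6 and scurfy, WT Treg included, and carries the source name of a CD4 Treg cell. All cells went by intraperitoneal injection on day 14 into scurfy mice that had received cyclophosphamide at 50 mg/kg at 10 days of age. Recipients also got human IL-2 (1000 IU per g), each day for 5 days and once a week after that. The libraries were made from 1000 sorted CD4+ lymph node cells each, positive for LNGFR or CD45.1, taken on day 50. A title carries a code and a library number, and the 2 libraries of a code were summed as 1 replicate. No label ties a code to an animal, and the p-values therefore reflect spread between codes that may be technical in part. FOXP3 codes start with F or N and LNGFR codes with G, so the vector and whatever the letter marks cannot be told apart. WT Treg differ from both other groups in origin, vector and sorting marker at once.

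Codes held 1154626 to 10376164 counts, and 3 of the 11 stood apart. E2 was the shallowest, with 54.8% of its counts on repeat-derived gene models against 2.51% to 6.55% in the other codes. The libraries of G1 correlated at only 0.476 in log2 CPM (counts scaled to 1000000 per normalized library), against 0.809 in E2 and 0.967 to 0.982 elsewhere. The second library of G1 held 332570 counts, 29.1% of them on repeat-derived models, against 3.85% in the first. In N3 the 12 B-cell markers, all detected in every code, summed to 9736 CPM, against 1170 to 2370 CPM in the other FOXP3 codes, 1678 to 3825 CPM in WT Treg and 1080 to 2196 CPM in LNGFR. Cd79a, a B-cell receptor chain, stood at 994 CPM in N3 and 560 CPM in G1, and at 15.8 to 107 CPM elsewhere. The 4 NK-cell markers summed to 15.9 to 86.7 CPM in FOXP3, 12.5 to 39.5 CPM in WT Treg and 60.0 to 245 CPM in LNGFR, with Ncr1 at 0 in 5 codes. The 7 plasma-cell markers summed to 326 to 660 CPM in FOXP3, 190 to 518 CPM in WT Treg and 552 to 742 CPM in LNGFR, and the part of either cell type in the results was not tested. Trac, the constant region of the receptor alpha chain, was present in all codes at 212 to 923 CPM. Of the CD8 markers, Cd8a reached at most 5.26 CPM, and Cd8b1 stood at 3.92 to 9.55 CPM in FOXP3, 6.58, 33.8 and 24.9 CPM in WT Treg codes E2, G4 and L1 and 8.63 to 14.2 CPM in LNGFR. Mouse Foxp3 stood at 162 to 313 CPM in FOXP3, 704 to 1630 CPM in WT Treg and 42.7 to 143 CPM in LNGFR. The human transgene was not analysed here, and whether any of its reads were counted as mouse Foxp3 was not tested. Calls are therefore given for all 11 codes and again without E2, G1 and N3. That smaller fit of 8 codes (4 FOXP3, 2 WT Treg and 2 LNGFR) gives calls that rest on little replication. These 3 codes were picked from the same data, and leaving them out narrows the spread within groups. In FOXP3 against LNGFR the members' median standard error was 0.34 over 11 codes and 0.13 over 8. The p-values of the 8-code fit do not account for that choice.

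The machinery was transcribed in every group. Scaled by exon length, in mean CPM per kb, the FOXP3 order was led by Cd2, an adhesion receptor that aids receptor triggering, at 395, Lck at 353 and Cd3d at 352. Lat followed at 196, Dgka, which clears diacylglycerol, at 181, Cd3g at 179, Cd3e at 160 and Zap70 at 150. Near the bottom stood Rasa2, which switches Ras off, at 4.51, Txk, a Tec-family kinase, at 3.04 and Orai1, the calcium channel, at 1.74. In WT Treg the same end of the scale held Itpr1, an inositol trisphosphate receptor, at 4.21 and Themis at 2.20.

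**Figure D1:**
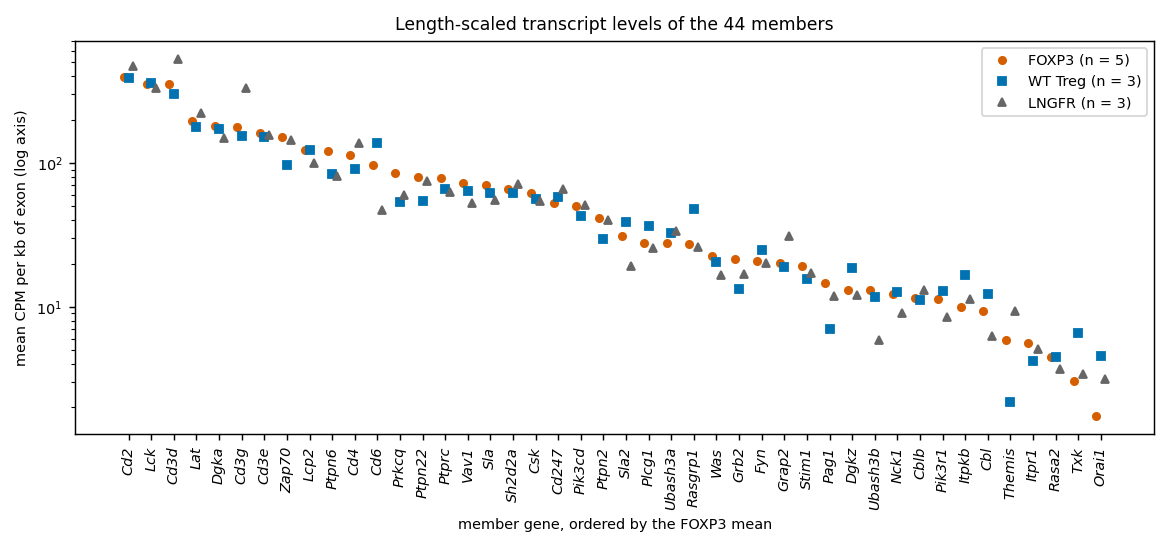
Mean CPM per kb of exon (log axis) of each of the 44 members in FOXP3 (circles, n = 5 codes), WT Treg (squares, n = 3) and LNGFR (triangles, n = 3), ordered by the FOXP3 mean. The order runs from Cd2 at 395 to Orai1 at 1.74 in FOXP3. Cd3g, Cd6, Txk, Pag1, Themis, Ubash3b and Orai1 are among the members whose symbols lie visibly apart.

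Summed over the 44 members, transcript level was 14850 ± 1244 CPM in FOXP3 (SD, n = 5), 13916 ± 4470 CPM in WT Treg (n = 3) and 14396 ± 1952 CPM in LNGFR (n = 3), and the ranges overlapped. The lowest code of each group was N3 with 12666 CPM, E2 with 8757 CPM and G1 with 12204 CPM. The brakes summed to 4863 ± 221 CPM in FOXP3, 4317 ± 1236 CPM in WT Treg and 4070 ± 1507 CPM in LNGFR. That set includes Ptprc, which also activates Lck, while Csk and Pag1 are counted with the kinases. Without Ptprc its sums were 3417 ± 170 CPM in FOXP3, 3102 ± 756 CPM in WT Treg and 2917 ± 1198 CPM in LNGFR. The receptor genes summed to 4077 ± 635 CPM in FOXP3, 4110 ± 1799 CPM in WT Treg and 4799 ± 1015 CPM in LNGFR. G1 stood apart in both sets, with a receptor sum of 5971 CPM against 4208 and 4217 CPM in G2 and G3. Its brakes summed to 2344 CPM, against 5121 and 4745 CPM in G2 and G3. E2 had a receptor sum of 2041 CPM, against 5312 and 4976 CPM in G4 and L1. The brakes of E2 summed to 2889 CPM, against 5031 and 5030 CPM in G4 and L1. In bulk samples such as these, fewer T cells in a sample and less of a transcript per T cell cannot be told apart.

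The 3 codes that stood apart lay at the edge of their group for many members. N3 lay below all other FOXP3 codes for 23 of 44 members and above them for 8, against 29.0% and 30.0% of all genes tested. All 7 receptor genes were among the 23. The 8 were Csk, Pag1, Grb2, Vav1, Ptpn6, Rasa2, Orai1 and Itpr1. This is the code with 9736 CPM of B-cell markers, and the part of B-cell RNA in these values was not tested. G1 lay below G2 and G3 for 36 members and above for 7 (44.5% and 43.7% of all genes), the 7 being Cd3d, Cd3g, Cd247, Cd2, Lat, Grap2 and Orai1. E2 lay below G4 and L1 for 33 members and above for 8 (50.6% and 40.0% of all genes), the 8 being Fyn, Txk, Themis, Plcg1, Dgkz, Rasa2, Orai1 and Itpr1.

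**Figure D2:**
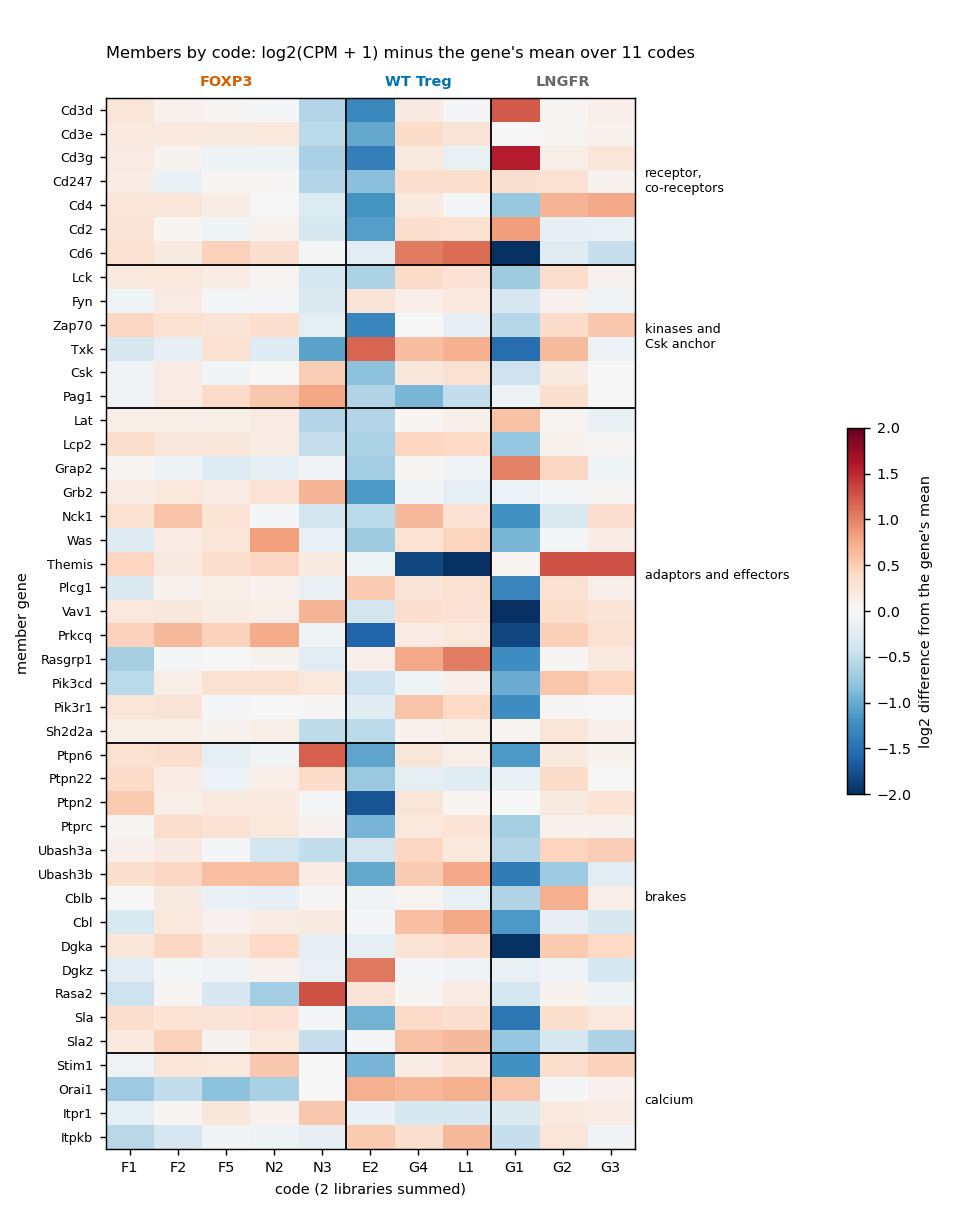
Each row is a member and each column a code, coloured by log2(CPM + 1) minus the gene's mean over the 11 codes, with the colour limited at 2 in each direction. Columns N3, E2 and G1 differ from their group for many rows, and the Themis row separates G4 and L1 (blue) from G2 and G3 (red).

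FOXP3 against LNGFR compares scurfy T cells that received the FOXP3 vector with those that received the reporter alone. Vector and code letter cannot be told apart in it. Over all 11 codes, no member passed an adjusted p of 0.05 in edgeR's quasi-likelihood test, in which 0.543% of the 15462 genes did. The smallest adjusted p was 0.264, for Ubash3b. At an unadjusted p under 0.05 there were 6 members, of which Cd6, Ubash3b and Sla2 were higher in FOXP3 and Cd3g, Grap2 and Orai1 lower, 13.6% of the members against 10.3% of all genes. DESeq2 called 1 member, with 2.65% of all genes, and limma voom 3, with 6.78%. The median log2 fold change was 0.11 over the members and -0.02 over all genes, and 42 of 44 members lay within 1 log2 unit of no change, as did 83.9% of all genes. In the fit of 8 codes edgeR called 6 members, where 10.7% of 14688 genes passed. Cd6, Ubash3b and Sla2 were higher in FOXP3 and Cd4, Themis and Ubash3a lower.

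WT Treg against LNGFR sets natural Treg beside scurfy T cells with the reporter alone. No member passed over all 11 codes in edgeR, against 1.30% of all genes, and the nearest was Themis with an adjusted p of 0.0544. At an unadjusted p under 0.05, 9 members (20.5%) stood, against 14.8% of all genes. Of these, Cd6, Rasgrp1, Ubash3b, Cbl and Sla2 were higher in WT Treg and Cd3g, Pag1, Grap2 and Themis lower. DESeq2 called 4 members, with 5.73% of the 13099 genes to which it gave an adjusted p, and limma voom 6, with 5.61% of all genes. The median log2 fold change was 0.05 over the members and 0.08 over all genes. With 8 codes edgeR called 10 members, with 7.66% of all genes passing. Cd2, Cd6, Rasgrp1, Ubash3b, Cbl and Sla2 were higher in WT Treg, and Cd4, Zap70, Pag1 and Themis lower.

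FOXP3 against WT Treg asks where the engineered cells differed from natural Treg. Again no member passed over all 11 codes in edgeR, against 0.259% of all genes, with Orai1 nearest at an adjusted p of 0.0874. At an unadjusted p under 0.05, 7 members (15.9%) stood, against 16.5% of all genes. Pag1, Grb2 and Themis were higher in FOXP3, and Txk, Rasgrp1, Orai1 and Itpkb lower. DESeq2 called 4 members, with 7.31% of all genes, and limma voom 5, with 6.89%. The median log2 fold change was 0.08 over the members and 0.01 over all genes. From 8 codes edgeR called 8 members, with 7.42% of all genes passing. Zap70, Pag1 and Themis were higher in FOXP3 and Cd6, Rasgrp1, Cbl, Orai1 and Itpkb lower. The 3 comparisons share their samples pairwise, so members called in more than 1 of them are not independent results.

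**Figure D3:**
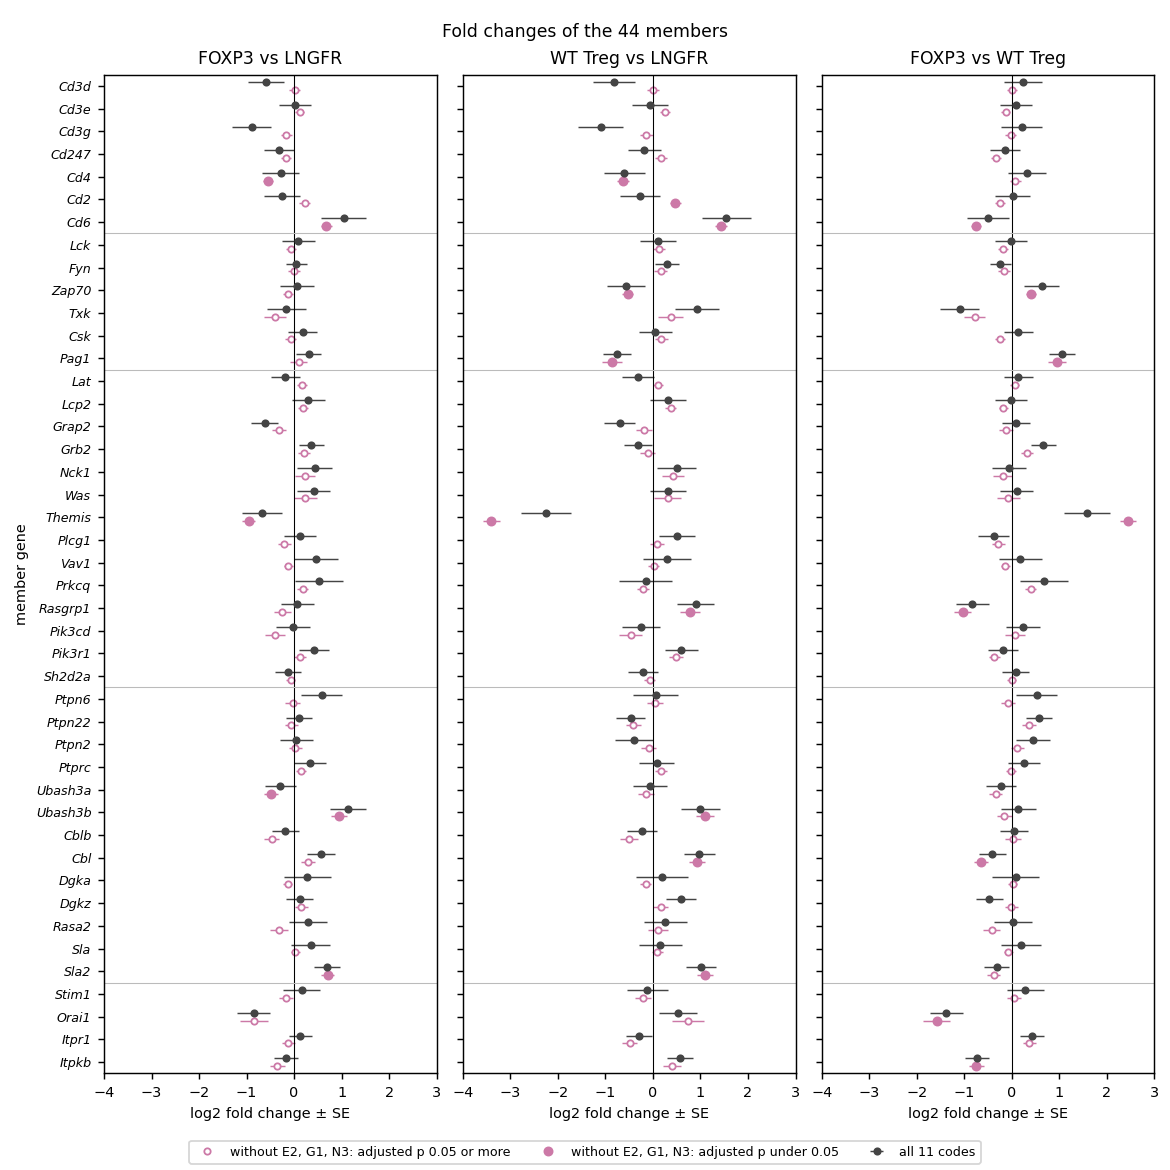
Log2 fold change ± SE of each member in FOXP3 vs LNGFR, WT Treg vs LNGFR and FOXP3 vs WT Treg, from all 11 codes (dark points) and without codes E2, G1 and N3 (pink, filled where the edgeR adjusted p is under 0.05). No dark point passes the threshold, and 6, 10 and 8 pink points do, with Themis the farthest from 0 in the 2 comparisons with WT Treg.

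Leaving out only the 3 weak libraries (both of E2 and the second of G1) gave smaller numbers. In edgeR 0 members were called in FOXP3 against LNGFR, where 1.63% of 15362 genes passed. An unadjusted p under 0.05 was reached there by 9 members (20.5%) and by 14.9% of all genes. In WT Treg against LNGFR Ubash3b was higher and Themis lower, with 2.07% of genes passing. In FOXP3 against WT Treg Themis was higher, with 0.430% of genes passing. Counting instead the members whose codes did not overlap between groups gave 3 in FOXP3 against LNGFR (9.02% of all genes), 10 in WT Treg against LNGFR (16.6%) and 9 in FOXP3 against WT Treg (12.4%).

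Themis is an adaptor that thymocytes need for positive selection and that tunes receptor signal strength through Ptpn6 (chromosome 10, 28668360 to 28883818). It had the largest fold changes of the members in the 2 comparisons with WT Treg, but not in FOXP3 against LNGFR. Its level was 73.9, 62.4, 69.9, 73.3 and 62.1 CPM in FOXP3 codes F1, F2, F5, N2 and N3. Themis was at 51.3, 14.7 and 10.9 CPM in WT Treg codes E2, G4 and L1, and 56.2, 134 and 136 CPM in LNGFR codes G1, G2 and G3. All WT Treg codes lay below every other code, while the FOXP3 codes, within 12 CPM of one another, lay above G1 and below G2 and G3. In log2 fold change this was -2.25 ± 0.52 (SE) in WT Treg against LNGFR (edgeR adjusted p = 0.0544), 1.58 ± 0.48 in FOXP3 against WT Treg (adjusted p = 0.116) and -0.67 ± 0.42 in FOXP3 against LNGFR (adjusted p = 0.632). In the fit of 8 codes the edgeR values were -3.40 ± 0.18 (adjusted p = 9.40e-07), 2.44 ± 0.17 (adjusted p = 1.38e-05) and -0.95 ± 0.13 (adjusted p = 0.00075). E2 and G1 are the codes that differ most from the rest of their groups here: E2 held 39 Themis counts in all, and G1 holds 71.7 and 31.1 CPM in its 2 libraries. The gene overlaps 4930519F09Rik on the opposite strand, which had at most 1 count in any code.

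Ubash3b encodes the phosphatase Sts-1 that removes phosphate from Zap70 (chromosome 9, 41011098 to 41161697). In WT Treg against LNGFR it is the other member called by leaving out either the weak libraries or the 3 codes. It stood at 88.7, 94.7, 108, 108 and 78.3 CPM in FOXP3, at 34.2, 101 and 120 CPM in WT Treg and at 26.2, 42.4 and 61.3 CPM in LNGFR. Every FOXP3 code lay above every LNGFR code, and in WT Treg only E2 lay within the LNGFR range. Its log2 fold change was 1.13 ± 0.38 in FOXP3 against LNGFR (edgeR adjusted p = 0.264) and 1.00 ± 0.41 in WT Treg against LNGFR (adjusted p = 0.289). With 8 codes these were 0.94 ± 0.17 (edgeR adjusted p = 0.00343) and 1.10 ± 0.19 (adjusted p = 0.00321). Between FOXP3 and WT Treg it was 0.13 ± 0.37 (edgeR adjusted p = 0.887).

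The promoters of Themis and Ubash3b are shown because these are the 2 members called both without the weak libraries and without E2, G1 and N3. Each window runs from 250 bases before to 50 bases after a transcription start listed by RefSeq (GRCm38.p6), the most upstream of 2, and is written 5′ to 3′ on the gene's strand, at chr10:28668110-28668409 (plus strand) for Themis and chr9:41158013-41158312 (minus strand) for Ubash3b. GENCODE M21 begins Ubash3b farther upstream. Capitals mark GGAAA or TTTCC, the core bound by NFAT, the calcium-dependent factor that pairs with Foxp3.
Themis: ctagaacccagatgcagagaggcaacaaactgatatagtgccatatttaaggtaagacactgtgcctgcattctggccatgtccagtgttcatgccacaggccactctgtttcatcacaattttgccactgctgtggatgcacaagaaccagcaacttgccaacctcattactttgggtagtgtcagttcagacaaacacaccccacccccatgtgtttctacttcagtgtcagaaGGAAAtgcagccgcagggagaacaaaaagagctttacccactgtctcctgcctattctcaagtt
Ubash3b: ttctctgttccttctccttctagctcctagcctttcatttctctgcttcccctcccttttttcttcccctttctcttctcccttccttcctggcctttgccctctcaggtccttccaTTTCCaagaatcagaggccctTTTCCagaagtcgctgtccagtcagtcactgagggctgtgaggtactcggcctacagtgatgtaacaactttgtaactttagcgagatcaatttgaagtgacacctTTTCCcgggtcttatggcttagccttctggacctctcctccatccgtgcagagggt
The core occurred once in the Themis window and in 3 places in that of Ubash3b, and in at least 1 listed window of 27 of the 36 members in the table (75.0%), against 64.4% of all 27025 genes. Neither window held the forkhead core TGTTTAC or the RUNX core TGTGGT, each searched on both strands, which occurred in 4.05% and 18.9% of all genes. A match describes the letters of this window and does not show binding.

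Among the receptor genes, the co-receptor Cd6, which binds CD166 and restrains signalling, differed most between groups (chromosome 19, 10789341 to 10830058). Its level was 798, 729, 890, 816 and 623 CPM in FOXP3, 553, 1322 and 1392 CPM in WT Treg and 114, 545 and 465 CPM in LNGFR. All FOXP3 and all WT Treg codes lay above all LNGFR codes, although E2 exceeded G2 by little. For Cd6 the log2 fold change was 1.04 ± 0.47 in FOXP3 against LNGFR (edgeR adjusted p = 0.470) and 1.54 ± 0.52 in WT Treg against LNGFR (adjusted p = 0.207). From 8 codes it was 0.67 ± 0.12 (edgeR adjusted p = 0.00266) and 1.43 ± 0.13 (adjusted p = 3.64e-05). FOXP3 against WT Treg then gave -0.76 ± 0.11 on the log2 scale (edgeR adjusted p = 0.00179).

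Cd3g, the gamma chain of CD3, shows how far 1 library can set a group's mean (chromosome 9, 44969572 to 44980431). It stood at 702, 659, 584, 582 and 398 CPM in FOXP3, at 241, 717 and 563 CPM in WT Treg and at 1856, 675 and 736 CPM in LNGFR. G1 alone was above all others, with 2550 CPM in its first library and 100 CPM in its second. Cd3g's log2 fold change of -0.90 ± 0.41 in FOXP3 against LNGFR (edgeR adjusted p = 0.483) was -0.16 ± 0.12 without E2, G1 and N3 (adjusted p = 0.464). Cd3d, the delta chain, followed the same codes, with 432 to 768 CPM in FOXP3, 266 to 736 CPM in WT Treg and 672 to 1521 CPM in LNGFR. Cd3e, the epsilon chain, stayed at 622 to 662 CPM over the LNGFR codes, G1 included.

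Cd4, the co-receptor for MHC class II that all cells were sorted on, averaged 456 ± 66 CPM in FOXP3, 365 ± 159 CPM in WT Treg and 556 ± 261 CPM in LNGFR. Over all 11 codes its log2 fold change was -0.29 ± 0.39 in FOXP3 against LNGFR (edgeR adjusted p = 0.819) and -0.60 ± 0.44 in WT Treg against LNGFR (adjusted p = 0.533). Without E2, G1 and N3 the log2 fold change was -0.56 ± 0.11 in FOXP3 against LNGFR (edgeR adjusted p = 0.00563) and -0.63 ± 0.13 in WT Treg against LNGFR (adjusted p = 0.00895). G2 and G3, at 689 and 724 CPM, exceeded every FOXP3 code (354 to 511 CPM) and every WT Treg code (187 to 491 CPM), whereas G1 stood at 255 CPM. Cd2 had a log2 fold change of 0.47 ± 0.12 in WT Treg against LNGFR in that fit (edgeR adjusted p = 0.036), but -0.27 ± 0.42 over all 11 codes (adjusted p = 0.808), where G1 stood at 1228 CPM beside 617 and 620 CPM in G2 and G3. Cd247, the zeta chain, averaged 282 ± 51.2 CPM in FOXP3, 309 ± 123 CPM in WT Treg and 351 ± 32.7 CPM in LNGFR and passed in neither fit.

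Lck and Fyn, the Src-family kinases that start the cascade, passed in neither fit. Lck averaged 1033 ± 153 CPM in FOXP3, 1047 ± 359 CPM in WT Treg and 969 ± 333 CPM in LNGFR. Zap70, the kinase that docks on phosphorylated CD3, averaged 450 ± 68.1 CPM in FOXP3, 291 ± 120 CPM in WT Treg and 433 ± 155 CPM in LNGFR. For Zap70 the 11 codes gave a log2 fold change of 0.62 ± 0.36 in FOXP3 against WT Treg (edgeR adjusted p = 0.429) and -0.57 ± 0.40 in WT Treg against LNGFR (adjusted p = 0.511). In the smaller fit, and in none of the other 19 alternatives, Zap70 was higher in FOXP3 than in WT Treg, by 0.41 ± 0.10 on the log2 scale (edgeR adjusted p = 0.0305), and lower in WT Treg than in LNGFR, with a log2 fold change of -0.53 ± 0.12 (adjusted p = 0.0154).

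Pag1, the membrane adaptor that tethers Csk and so keeps Lck inhibited, was lowest in WT Treg (chromosome 3, 9687479 to 9833679). It stood at 102, 120, 139, 155 and 183 CPM in FOXP3, at 69.8, 56.4 and 75.9 CPM in WT Treg and at 99.5, 133 and 108 CPM in LNGFR. No WT Treg code reached the lowest code of either other group. For Pag1 the log2 fold change was 1.06 ± 0.27 in FOXP3 against WT Treg (edgeR adjusted p = 0.0901) and -0.75 ± 0.30 in WT Treg against LNGFR (adjusted p = 0.269). The smaller fit gave 0.95 ± 0.19 (edgeR adjusted p = 0.0104) and -0.86 ± 0.21 (adjusted p = 0.0287). Csk itself, the kinase that inhibits Lck, averaged 231 ± 39.6 CPM in FOXP3, 209 ± 77.7 CPM in WT Treg and 203 ± 40.8 CPM in LNGFR.

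Txk, which phosphorylates Plcg1, was highest in WT Treg (chromosome 5, 72695978 to 72752777). It stood at 31.2, 35.1, 49.1, 33.0 and 18.2 CPM in FOXP3, at 89.5, 61.3 and 65.4 CPM in WT Treg and at 13.1, 61.9 and 36.4 CPM in LNGFR. All FOXP3 codes lay below all WT Treg codes. Of the LNGFR codes only G2, at 61.9 CPM, reached the WT Treg range, just above G4 at 61.3 CPM. For Txk in FOXP3 against WT Treg the log2 fold change was -1.10 ± 0.41 (edgeR adjusted p = 0.188), and -0.78 ± 0.22 without E2, G1 and N3 (adjusted p = 0.056).

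**Figure D4:**
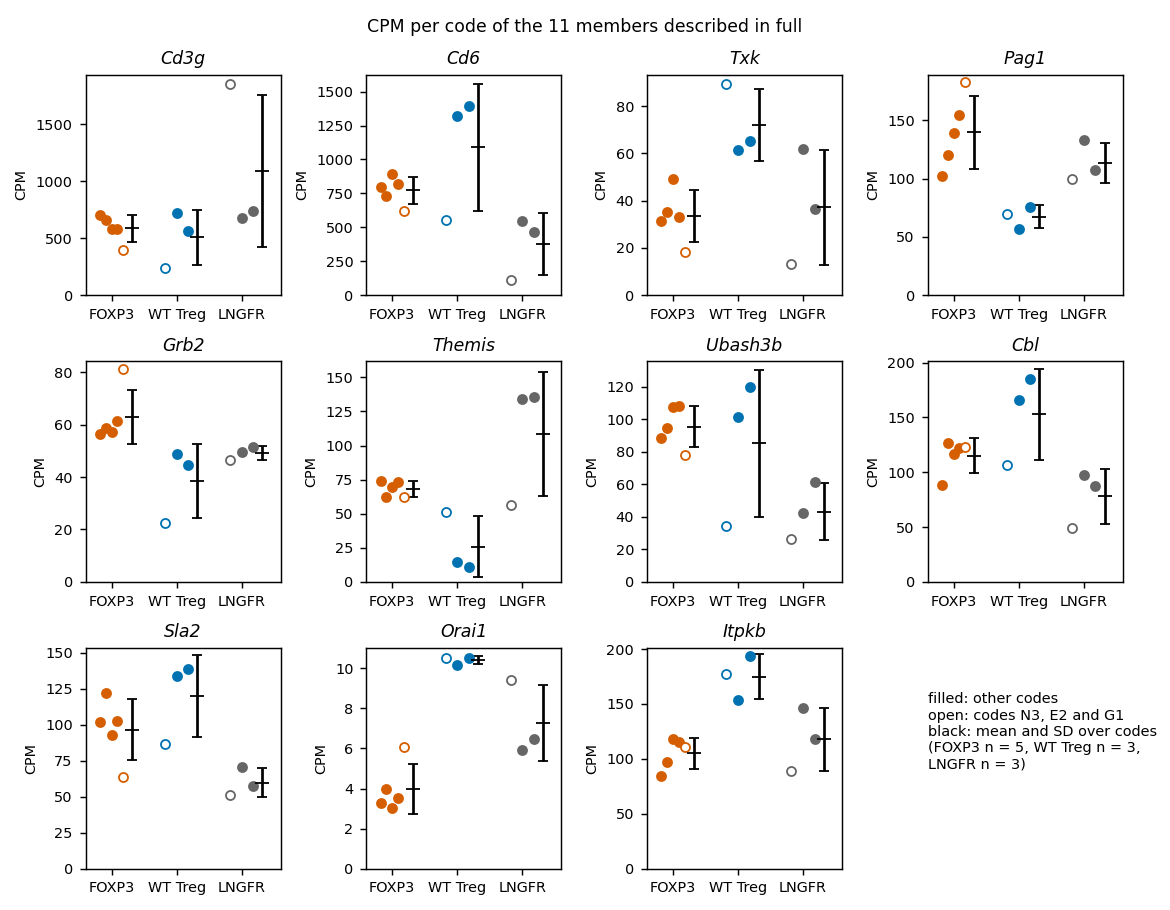
CPM per code of the 11 members described in full, with FOXP3, WT Treg and LNGFR from left to right, open symbols for codes N3, E2 and G1, and black bars for mean and SD over codes. Themis and Pag1 are lowest in WT Treg, Ubash3b and Cd6 are higher in FOXP3 than in LNGFR in every code, and the Cd3g mean of LNGFR rests on G1 at 1856 CPM.

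Of the 14 adaptors and effectors, only Themis and Rasgrp1 were called in any comparison without E2, G1 and N3. Rasgrp1, the exchange factor that carries the diacylglycerol signal to Ras, averaged 152 ± 28.3 CPM in FOXP3, 270 ± 82.5 CPM in WT Treg and 145 ± 65.7 CPM in LNGFR. Over all 11 codes the Rasgrp1 log2 fold change was -0.83 ± 0.34 in FOXP3 against WT Treg (edgeR adjusted p = 0.239) and 0.89 ± 0.39 in WT Treg against LNGFR (adjusted p = 0.316). In the fit of 8 codes it was lower in FOXP3 than in WT Treg, with a log2 fold change of -1.04 ± 0.18 (edgeR adjusted p = 0.00478), and higher in WT Treg than in LNGFR, with 0.79 ± 0.21 (adjusted p = 0.0422). Grb2, the adaptor that brings the exchange factor Sos to Lat, stood at 56.6, 58.8, 57.0, 61.4 and 81.2 CPM in FOXP3, at 22.4, 48.8 and 44.5 CPM in WT Treg and at 46.4, 49.5 and 51.7 CPM in LNGFR (chromosome 11, 115644045 to 115708597). FOXP3 codes lay above both other groups without overlap, N3 highest and the rest within 5 CPM of one another. The log2 fold change was 0.67 ± 0.27 in FOXP3 against WT Treg (edgeR adjusted p = 0.224) and 0.32 ± 0.13 without E2, G1 and N3 (adjusted p = 0.183). Against LNGFR it was 0.36 ± 0.26 (edgeR adjusted p = 0.684).

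Lat and Lcp2, the scaffolds, passed in neither fit. Lat averaged 543 ± 104 CPM in FOXP3, 495 ± 118 CPM in WT Treg and 616 ± 166 CPM in LNGFR. Lcp2, which encodes Slp-76, averaged 546 ± 109 CPM in FOXP3, 552 ± 200 CPM in WT Treg and 443 ± 129 CPM in LNGFR. Plcg1, which splits the membrane lipid into both second messengers, ranged from 181 to 243 CPM in FOXP3 and from 266 to 316 CPM in WT Treg, without overlap, and from 88.1 to 275 CPM in LNGFR. In FOXP3 against WT Treg Plcg1 had a log2 fold change of -0.38 ± 0.33 (edgeR adjusted p = 0.611). Vav1, an exchange factor for Rac, and Prkcq, the protein kinase C of the synapse, were low in G1 at 45.4 and 122 CPM, against 261 to 278 CPM and 537 to 607 CPM in G2 and G3.

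Among the brakes, Cbl and Sla2 stood beside Ubash3b. Cbl, a ubiquitin ligase for activated kinases, had 88.1, 127, 116, 122 and 123 CPM in FOXP3, 107, 166 and 186 CPM in WT Treg and 49.1, 97.3 and 87.5 CPM in LNGFR (chromosome 9, 44142976 to 44234049). All WT Treg codes lay above all LNGFR codes, and in FOXP3 only F1 lay within the LNGFR range. In WT Treg against LNGFR the log2 fold change was 0.98 ± 0.33 (edgeR adjusted p = 0.207), and 0.93 ± 0.17 without E2, G1 and N3 (adjusted p = 0.00541). In that fit FOXP3 against WT Treg gave -0.64 ± 0.14 (edgeR adjusted p = 0.0178), and FOXP3 against LNGFR gave 0.29 ± 0.15 (adjusted p = 0.269).

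Sla2, which encodes Slap-2, an adaptor that takes the receptor and Zap70 to Cbl, had 102, 122, 93.2, 103 and 63.8 CPM in FOXP3, 86.9, 134 and 138 CPM in WT Treg and 51.4, 70.6 and 57.4 CPM in LNGFR (chromosome 2, 156872457 to 156887192). N3 alone among the FOXP3 codes lay within the LNGFR range, and no WT Treg code did. Sla2 had a log2 fold change of 0.69 ± 0.28 in FOXP3 against LNGFR (edgeR adjusted p = 0.402) and 1.01 ± 0.31 in WT Treg against LNGFR (adjusted p = 0.164). The fit of 8 codes gave 0.71 ± 0.14 (edgeR adjusted p = 0.00691) and 1.09 ± 0.16 (adjusted p = 0.00115). Sla2 overlaps Rab5if on the opposite strand, which stood at 3.84 to 16.8 CPM and was lowest in G2 and highest in G1.

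Ubash3a, the sister gene of Ubash3b with little phosphatase activity, averaged 311 ± 61.9 CPM in FOXP3, 363 ± 96.1 CPM in WT Treg and 381 ± 138 CPM in LNGFR. Ubash3a had a log2 fold change of -0.29 ± 0.32 in FOXP3 against LNGFR over all 11 codes (edgeR adjusted p = 0.779). In the fit of 8 codes it was lower in FOXP3 than in LNGFR, with a log2 fold change of -0.49 ± 0.14 (edgeR adjusted p = 0.0402). Ptpn22, a phosphatase of Lck and Zap70, ranged from 439 to 620 CPM in FOXP3, from 282 to 419 CPM in WT Treg and from 432 to 613 CPM in LNGFR, so that WT Treg lay below both without overlap. Its log2 fold change in FOXP3 against WT Treg was 0.57 ± 0.28 (edgeR adjusted p = 0.340). Ptpn6, which encodes Shp-1 and is also abundant in B cells, stood at 590 CPM in N3, against 226 to 329 CPM in the other FOXP3 codes. The part of B-cell RNA in that value was not tested. Ptprc, the phosphatase CD45 that activates Lck, averaged 1446 ± 136 CPM in FOXP3, 1215 ± 482 CPM in WT Treg and 1153 ± 312 CPM in LNGFR.

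Related members were set side by side within each code, since a ratio inside a code does not depend on the library's size. These pairs were chosen after their values were seen and carry no test. Ubash3b over Ubash3a was 0.316 ± 0.071 in FOXP3 (0.247 to 0.419), 0.224 ± 0.089 in WT Treg (0.133 to 0.311) and 0.114 ± 0.019 in LNGFR (0.094 to 0.131). Every code of FOXP3 and WT Treg, E2 by a narrow margin, lay above every LNGFR code, G1 included. Cbl over Cblb, a pair of ubiquitin ligases of which Cblb sets the need for costimulation, was 0.963 ± 0.152 in FOXP3, 1.31 ± 0.39 in WT Treg and 0.587 ± 0.089 in LNGFR. LNGFR lay below both without overlap. Sla2 over Sla was 0.148 ± 0.023 in FOXP3, 0.231 ± 0.065 in WT Treg and 0.150 ± 0.092 in LNGFR, where G1 at 0.256 stood far above G2 and G3. Dgkz over Dgka, the diacylglycerol kinases, was 0.086 to 0.119 in FOXP3, 0.280 in E2, 0.095 in G4 and 0.090 in L1 of WT Treg, and 0.587 in G1, 0.078 in G2 and 0.070 in G3 of LNGFR.

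**Figure D5:**
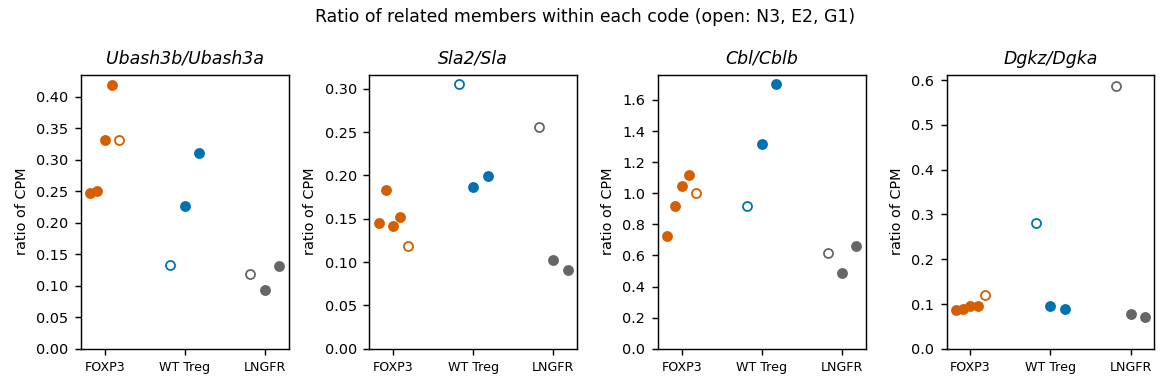
Ratio of CPM of related members within each code, with FOXP3, WT Treg and LNGFR from left to right and open symbols for N3, E2 and G1. Ubash3b over Ubash3a is highest in FOXP3 (mean 0.316), Cbl over Cblb is lowest in LNGFR (mean 0.587), and Dgkz over Dgka is high only in E2 and G1.

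In the calcium branch, Orai1, the pore of the store-operated channel, was lowest in FOXP3 (chromosome 5, 123015074 to 123030456). It stood at 3.29, 4.00, 3.02, 3.53 and 6.10 CPM in FOXP3, at 10.5, 10.2 and 10.5 CPM in WT Treg and at 9.41, 5.92 and 6.47 CPM in LNGFR. All FOXP3 codes lay below all WT Treg codes, and N3 overlapped LNGFR. The log2 fold change was -1.38 ± 0.35 in FOXP3 against WT Treg (edgeR adjusted p = 0.0874) and -0.85 ± 0.34 in FOXP3 against LNGFR (adjusted p = 0.402). With 8 codes it was -1.58 ± 0.29 (edgeR adjusted p = 0.00571) and -0.84 ± 0.30 (adjusted p = 0.0948). These levels rest on 28 to 56 counts per FOXP3 code and 8 counts in E2, and the overlapping Gm2479 had at most 4 counts in a code.

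Itpkb, the kinase that adds a phosphate to inositol trisphosphate, the messenger of calcium release, was highest in WT Treg (chromosome 1, 180330485 to 180424802). It stood at 84.1, 97.2, 118, 115 and 111 CPM in FOXP3, at 178, 153 and 194 CPM in WT Treg and at 89.1, 146 and 118 CPM in LNGFR. WT Treg lay above both other groups without overlap. Itpkb in FOXP3 against WT Treg had a log2 fold change of -0.73 ± 0.25 (edgeR adjusted p = 0.145), and -0.75 ± 0.16 without E2, G1 and N3 (adjusted p = 0.0142). Stim1, the calcium sensor that opens Orai1, averaged 198 ± 34.0 CPM in FOXP3, 162 ± 63.4 CPM in WT Treg and 177 CPM in LNGFR (74.0 to 238). Itpr1 averaged 103 ± 19.8 CPM in FOXP3, 77.0 ± 6.23 CPM in WT Treg and 94.1 ± 16.3 CPM in LNGFR.

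Of 68 other genes of the pathway, 66 were tested. Over all 11 codes edgeR called 1 in FOXP3 against LNGFR, 2 in WT Treg against LNGFR and none in FOXP3 against WT Treg. The shares of all genes called were 0.543%, 1.30% and 0.259%. In the same order, 4 (6.06%), 12 (18.2%) and 7 (10.6%) had an unadjusted edgeR p under 0.05. Of all genes, 10.3%, 14.8% and 16.5% did. In FOXP3 against WT Treg DESeq2 called 3, with 7.31% of all genes, and limma voom 7, with 6.89%. Ptprj, the receptor phosphatase CD148, rose to 21.5 ± 6.36 CPM in FOXP3, against 6.78 ± 1.52 CPM in LNGFR, a log2 fold change of 1.65 ± 0.30 (edgeR adjusted p = 0.0329). It also rose in WT Treg, at 19.4 ± 3.77 CPM, by 1.52 ± 0.33 (edgeR adjusted p = 0.0422). Over the 20 alternatives the Ptprj adjusted p ran from 0.000208 to 0.288 in FOXP3 against LNGFR and from 0.00247 to 0.323 in WT Treg against LNGFR. It missed the threshold in both when any 1 of F1, F2, F5, G1, G2, G3, G4 or L1 was left out. Its call in WT Treg was also lost without a filter on low counts and in a fit of WT Treg and LNGFR alone.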

How the data were processed

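Smart-seq libraries of sorted mouse CD4+ T cells were read as the raw counts per gene that the authors deposited, which per the submitters' processing notes came from STAR 2.7.3a, featureCounts and Subread 2.0.0 on mm10 (GRCm38). With annotation, strand setting and handling of multimapped reads not given in the sources used here, 14 members whose exons overlap another gene can hold its reads. PCR copies are counted, since there were no molecular identifiers. All 22 count columns were used. The 2 libraries of a code differed by more than sampling noise (chi-square per degree of freedom 2.62 to 72.5) and were summed.

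All 11 codes entered 1 fit with edgeR 4.0.16 in R 4.3.3 (TMM, filterByExpr, robust quasi-likelihood, Benjamini-Hochberg adjusted p under 0.05 over all genes tested). CPM are counts scaled to 1000000 per TMM-adjusted library. SE is the absolute log2 fold change divided by the square root of F. The common biological coefficient of variation was 0.491. The procedure was tested on simulated data, where it missed most changes of 2-fold and of 4-fold in each comparison. Alternatives were DESeq2 1.42.0, its size factors, limma 3.58.1 voom with quality weights, no filter, each code left out, weak libraries or codes left out, 2 groups only and repeat-derived models removed. Shares of all genes called are over the genes with an adjusted p in the fit named. With DESeq2 these were 15195 in both comparisons with FOXP3 and 13099 in WT Treg against LNGFR. Without a filter they were 46911. The members, gene lists and tests were chosen with earlier results of these data known. Full values are given for members called without the weak libraries and also without E2, G1 and N3, and for the 2 of each role with the smallest p. Lengths and positions are from GENCODE M21, promoters from RefSeq. The tables used python 3.11.15. The values of 1 other pathway gene called in WT Treg against LNGFR are not reported here.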

Additional observations from a re-analysis of the deposited data

Results flagged for a closer look

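In the FOXP3 group, 11 of 44 members (25.0%) had 1 code whose gap to its nearest neighbour took up more than 0.71 of the group's range, against 11.2% of all genes. Chance flags about 1 in 20 such groups. N3 was the code apart for 9 of them. It was low for Cd3e at 429 CPM, Zap70 at 333 CPM, Lat at 359 CPM, Sh2d2a, an adaptor for Lck and Txk, at 273 CPM and Sla, the relative of Sla2, at 538 CPM. It was high for Grb2 at 81.2 CPM, Vav1 at 352 CPM, Ptpn6 at 590 CPM and Rasa2 at 155 CPM. N3 is also the code with the B-cell marker sum of 9736 CPM, whose part in these values was not tested. F1 was low for Pik3cd, the lymphocyte catalytic subunit of PI3 kinase, at 198 CPM and for Cbl at 88.1 CPM.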

How the results depend on the processing

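Member calls over all codes were 0 in each comparison. In FOXP3 against LNGFR they were 1 with DESeq2, 3 with limma voom, 6 without E2, G1 and N3, and 2 without E2 and G1, a choice made after seeing the data. In WT Treg against LNGFR they were 4 with DESeq2, 6 with limma voom, 1 without a filter, 2 without the weak libraries, 10 without E2, G1 and N3, 5 without E2 and G1, and 0 to 1 with a single code left out (Themis, without G1 or without E2). In FOXP3 against WT Treg they were 4, 5, 1, 1, 8 and 6 under the same settings, and 0 to 1 with a single code left out (Themis, without E2). Over the fits with a single code left out, 14 to 273 of all genes were called in FOXP3 against LNGFR. In WT Treg against LNGFR 37 to 299 of all genes were called there, and in FOXP3 against WT Treg 4 to 1230. The shares of all genes called in the 3 comparisons, in the same order, were 2.65%, 5.73% and 7.31% with DESeq2, 6.78%, 5.61% and 6.89% with limma voom, 0.701%, 2.13% and 7.71% without a filter, 1.63%, 2.07% and 0.430% without the weak libraries, 10.7%, 7.66% and 7.42% without E2, G1 and N3, and 2.13%, 3.35% and 2.74% without E2 and G1. Called other pathway genes in FOXP3 against LNGFR were 3 with limma voom, 9 without E2, G1 and N3, 2 without E2 and G1, and 0 to 1 with a single code left out. In WT Treg against LNGFR they were 6 with DESeq2, 8 with limma voom, 1 without a filter, 4 without the weak libraries, 12 without E2, G1 and N3, 5 without E2 and G1, 0 in a fit of the 2 groups, and 0 to 3 with a single code left out. In FOXP3 against WT Treg they were 1 with DESeq2's size factors, 3 with DESeq2, 7 with limma voom, 1 without a filter, 1 without the weak libraries, 9 without E2, G1 and N3, 3 without E2 and G1, 1 in a fit of the 2 groups, and 0 to 1 with a single code left out. Cd2 in WT Treg against LNGFR reversed to 0.47 without E2, G1 and N3 (edgeR adjusted p = 0.036), against -0.27 over all codes. Over the members' log2 fold changes, 2325 results under the alternatives kept direction and side of the threshold, 67 passed it only there, and 247 changed sign without a call in either fit. The cause of these differences was not tested, beyond that leaving codes out leaves fewer samples. With 2 WT Treg and 2 LNGFR codes left, the smaller fits rest on little replication. The codes they leave out were picked from these data. No paired analysis was possible because no label ties a code of one group to a code of another. Some codes share a digit or a letter across groups, and what these mark is not stated.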

Other observations

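Exon length and the departure of a code from the other codes were related to different degrees across genes, which are not independent replicates. Spearman's rho between exon length and the log2 ratio to the other codes of the same group was -0.36 over the 44 members in G1 (-0.18 over 15178 genes), -0.35 in F1 (-0.23) and -0.47 in G4 (-0.22). It was 0.41 in E2 (0.24) and 0.44 in G2 (0.16). Each ratio has the other codes of the group below the line, so 1 code that departs also moves its partners' values the other way. With 3 codes in a group, the values of E2 and G4, and of G1 and G2, are therefore not separate departures. No explanation was tested.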
